A study of Mus musculus with 32 samples.

Results

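Hmgcs1, Idi1, Fdps, Fdft1, Sqle, Lss and Insig1 were taken as a set of 7 genes among the 25058 genes that the RNA-seq, XR-seq and Damage-seq files of 4 mouse organs had in common. Their symbols were matched to the Ensembl identifiers of the files through the GENCODE annotation of mm10, and all 7 passed the filter on low counts in every organ. The first 6 encode enzymes of cholesterol synthesis and Insig1 encodes a regulator of that pathway. No gene of cholesterol uptake was among them, so the results describe synthesis and its control.

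Wild-type female C57BL/6J mice of 6 or 7 months were given cisplatin at 10 mg/kg body weight by intraperitoneal injection at ZT1 and killed at ZT5, and control mice received the same volume of 154 mM saline. The sample labels give a time after treatment of 2 h, whereas the injection and killing times are 4 h apart. RNA-seq was made from kidney, liver, lung and spleen of both arms, with 2 libraries per organ and arm and 16 in all. XR-seq, which captures the short oligonucleotides cut out by nucleotide excision repair, and Damage-seq, which maps the cisplatin adducts themselves, were made from the cisplatin arm only, with 2 libraries per organ and 8 per assay. XR-seq and Damage-seq reads were counted apart for each gene's transcribed strand, the template of RNA polymerase (TS), and for its other strand, called non-transcribed (NTS). The labels of the lung and spleen RNA samples were corrected by the submitters in a later update that exchanged control and cisplatin, and the corrected labels were used here.

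Cholesterol is made from acetyl-CoA through the mevalonate pathway, whose early steps build isoprenoid units and whose later steps join them into squalene and close the sterol rings. The genes of the pathway share a transcription factor, SREBP-2, which is held in the endoplasmic reticulum when sterol is plentiful and is released and cut when sterol is scarce. INSIG1 is one of the proteins that hold it there, and Insig1 is itself a target of SREBP, so the gene is part of a feedback loop. The liver is a major organ of cholesterol synthesis and export.

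Hmgcs1 (chr13:119690379-119708260, plus strand) encodes the cytosolic HMG-CoA synthase at the entry of the mevalonate pathway. Idi1 (chr13:8885501-8892451, plus strand) encodes isopentenyl-diphosphate isomerase. Fdps (chr3:89093588-89101959, minus strand) encodes farnesyl diphosphate synthase, whose product also feeds protein prenylation. Fdft1 (chr14:63145150-63179578, minus strand) encodes squalene synthase, the first step committed to sterols. Sqle (chr15:59315077-59331192, plus strand) encodes squalene epoxidase. Lss (chr10:76531588-76557138, plus strand) encodes lanosterol synthase, which closes the rings. Insig1 lies at chr5:28071363-28078662 on the plus strand. All coordinates span the whole protein-coding gene, exons and introns, in mm10. Among the genes counted in these data, the only ones searched, some on the opposite strand overlapped 4 of the 7. The antisense gene 4930483K19Rik overlapped Lss by 11268 bp, the antisense gene Gm48342 overlapped Hmgcs1 by 6190 bp, Ctsb overlapped the end of Fdft1 by 774 bp and Gm48574 overlapped Idi1 by 323 bp. The RNA library kit did not mark the strand, so RNA reads from an overlapped stretch cannot be assigned to one strand.

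RefSeq promoter sequences (GRCm38.p6, from 250 bases before to 50 bases after the annotated start) were held for 4 of the 7 genes, and they are shown because the RNA of Insig1, Lss and Idi1 separated the control from the cisplatin libraries in liver and that of Hmgcs1 did not. Capitals mark every match, on either strand, to the CCAAT box (CCAAT, or ATTGG on the opposite strand) and to a sterol regulatory element written as TCACNCCAC. Each is printed 5′ to 3′ on the plus strand, the strand of the gene.
Insig1, chr5:28071162-28071461: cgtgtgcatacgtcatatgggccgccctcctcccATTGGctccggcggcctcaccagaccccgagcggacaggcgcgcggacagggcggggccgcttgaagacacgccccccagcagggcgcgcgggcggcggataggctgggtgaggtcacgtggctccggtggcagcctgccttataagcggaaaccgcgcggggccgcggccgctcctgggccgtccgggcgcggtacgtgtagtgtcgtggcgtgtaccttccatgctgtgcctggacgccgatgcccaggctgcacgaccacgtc
Lss, chr10:76531355-76531654: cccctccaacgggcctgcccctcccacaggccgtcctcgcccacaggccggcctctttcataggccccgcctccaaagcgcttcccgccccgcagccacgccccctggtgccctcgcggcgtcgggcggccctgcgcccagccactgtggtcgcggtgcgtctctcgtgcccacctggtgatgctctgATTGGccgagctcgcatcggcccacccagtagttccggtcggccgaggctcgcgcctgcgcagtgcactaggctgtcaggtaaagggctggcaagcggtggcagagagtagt
Idi1, chr13:8885356-8885655: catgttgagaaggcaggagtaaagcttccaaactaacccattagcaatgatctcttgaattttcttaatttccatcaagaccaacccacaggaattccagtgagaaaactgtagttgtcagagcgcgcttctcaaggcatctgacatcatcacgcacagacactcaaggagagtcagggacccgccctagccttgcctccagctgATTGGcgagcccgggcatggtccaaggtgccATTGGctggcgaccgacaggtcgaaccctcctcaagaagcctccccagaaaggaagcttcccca
Hmgcs1, chr13:119690101-119690400: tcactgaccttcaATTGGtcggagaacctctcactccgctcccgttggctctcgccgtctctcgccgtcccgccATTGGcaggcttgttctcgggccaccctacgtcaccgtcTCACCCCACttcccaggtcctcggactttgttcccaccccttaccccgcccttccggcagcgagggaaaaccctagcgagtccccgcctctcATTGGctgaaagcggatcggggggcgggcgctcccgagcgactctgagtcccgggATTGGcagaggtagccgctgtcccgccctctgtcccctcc
CCAAT boxes were found in all 4 promoters, all in the ATTGG orientation. Hmgcs1 had 4, at positions -237, -176, -45 and 11 counted from 1 at the start, Idi1 had them at -45 and -14, Lss at -62 and Insig1 at -216. Of all 32851 promoters of the same length, 37.4% held a CCAAT box. The sterol regulatory element was found once, in the Hmgcs1 promoter at -137, against 1.24% of all promoters. The GC box GGGCGG or its reverse occurred in all 4 promoters and in 35.7% of all promoters, and the E box CACGTG occurred in the Insig1 promoter at -101 and in 7.15% of all promoters. None of these matches overlapped another. A match describes letters only.

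The libraries carried 15612743 to 162268216 counted reads in RNA-seq, 10658675 to 59779770 reads on genes in XR-seq and 1571167 to 6441367 in Damage-seq. The 2 control libraries of lung and those of spleen differed far less than the other RNA pairs. Their chi-square per degree of freedom was 2.75 and 2.98, against 39.3 to 349 in the other pairs, where counting error alone gives 1. Each such pair was summed and counted as 1 sample, and in lung and spleen 1 control sample was therefore compared with 2 cisplatin samples. Markers of hepatocytes, kidney tubule and lung epithelium were highest in the organ of that label, at a summed 112533, 20989 and 48524 counts per 1000000 counted reads (CPM) or more there and at 413, 92.2 and 50.6 CPM or less in every library of the other organs. The p53 and stress response genes Cdkn1a and Mdm2 and the clock gene Per1 were all called higher after cisplatin in kidney, with log2 fold changes of 4.33, 1.87 and 2.35 (edgeR glmTreat, adjusted p = 0.00733, 0.0247 and 0.0438). Their summed level was 68.0 and 101 CPM in control liver and 350 and 483 CPM after cisplatin, where no gene was called. In lung it was 209 and 209 CPM in control and 572 and 658 CPM after cisplatin. The rise was smallest in spleen, from 115 and 124 CPM to 151 and 160 CPM. In bulk tissue, fewer cells of a type and less RNA per cell cannot be told apart.

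The liver had the most RNA of all 7 genes in the control mice, and the spleen had the least. RNA levels are given in RPKM, reads per kilobase of exon scaled to library size, which compares genes of different length. Insig1 was at 278 ± 65.8 RPKM in control liver (mean ± SD, n = 2 libraries) and led the set there, with 232 and 325 RPKM in the 2 libraries. Its control level was 17.4 and 17.6 RPKM in kidney, 25.9 and 26.8 in lung, and 10.1 and 9.99 in spleen. Insig1 was the only member whose kidney mean lay below its lung mean. Hmgcs1 reached 151 and 174 RPKM in control liver and 108 and 97.9 in kidney, against 20.03 and 21.5 in lung and 9.72 and 10.9 in spleen. Liver and kidney were thus close for the entry enzyme and far above lung and spleen. Fdft1 was at 56.4 and 77.2 RPKM in liver, at 6.76 and 12.6 in kidney, at 9.45 and 9.65 in lung and at 3.94 and 4.01 in spleen. Sqle was at 30.96 and 48.7 RPKM in liver, 20.1 and 20.8 in kidney, 7.04 and 7.51 in lung and 2.83 and 3.23 in spleen. In both genes the liver libraries lay above every library of the other organs. Fdps was at 12.8 and 25.3 RPKM in liver and between 0.642 and 1.196 RPKM in every other control library. Idi1 (10.9 and 12.8 RPKM) and Lss (10.0 and 13.5 RPKM) had the lowest liver levels of the set and stayed between 0.976 and 3.23 RPKM in the other control organs. The RPKM of Lss was computed over 10787 bp of annotated exon, more than for any other member.

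Of the 42 comparisons of 7 genes between pairs of control organs, 28 were called (edgeR quasi-likelihood test, Benjamini-Hochberg adjusted p under 0.05 over 18444 genes). Liver exceeded lung for 7 of 7 genes, where 16.7% of all genes were called higher in liver, with log2 differences from 2.40 (Sqle) to 4.19 (Fdps). It exceeded spleen for 7 of 7, where 19.9% of all genes were called higher, with log2 differences from 3.34 (Idi1) to 4.73 (Insig1), while the median of all genes was -0.47. Liver exceeded kidney for 6 of 7, where 14.2% of all genes were. The exception was Hmgcs1, lower in kidney than in liver by 0.56 on the log2 scale with a standard error (SE) of 0.29 and an adjusted p of 0.176 in the edgeR test. The largest gaps between kidney and liver were those of Fdps, a log2 difference of -4.11, and Insig1, -3.90. Kidney exceeded spleen for 5 of 7 (24.1% of all genes called higher) and lung for 2 of 7 (15.5%), the 2 being Hmgcs1 and Sqle with log2 differences of 2.35 and 1.53. Between lung and spleen, each with 1 control sample, 1 of 7 was called, Insig1 with a difference of 1.37, with 16.1% of all genes called higher in lung. Without the kidney control library 1, 16 of the 42 comparisons were called in place of 28, and that count is the only one among the 8 such omissions to change by more than 1.5 times.

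**Figure D1:**
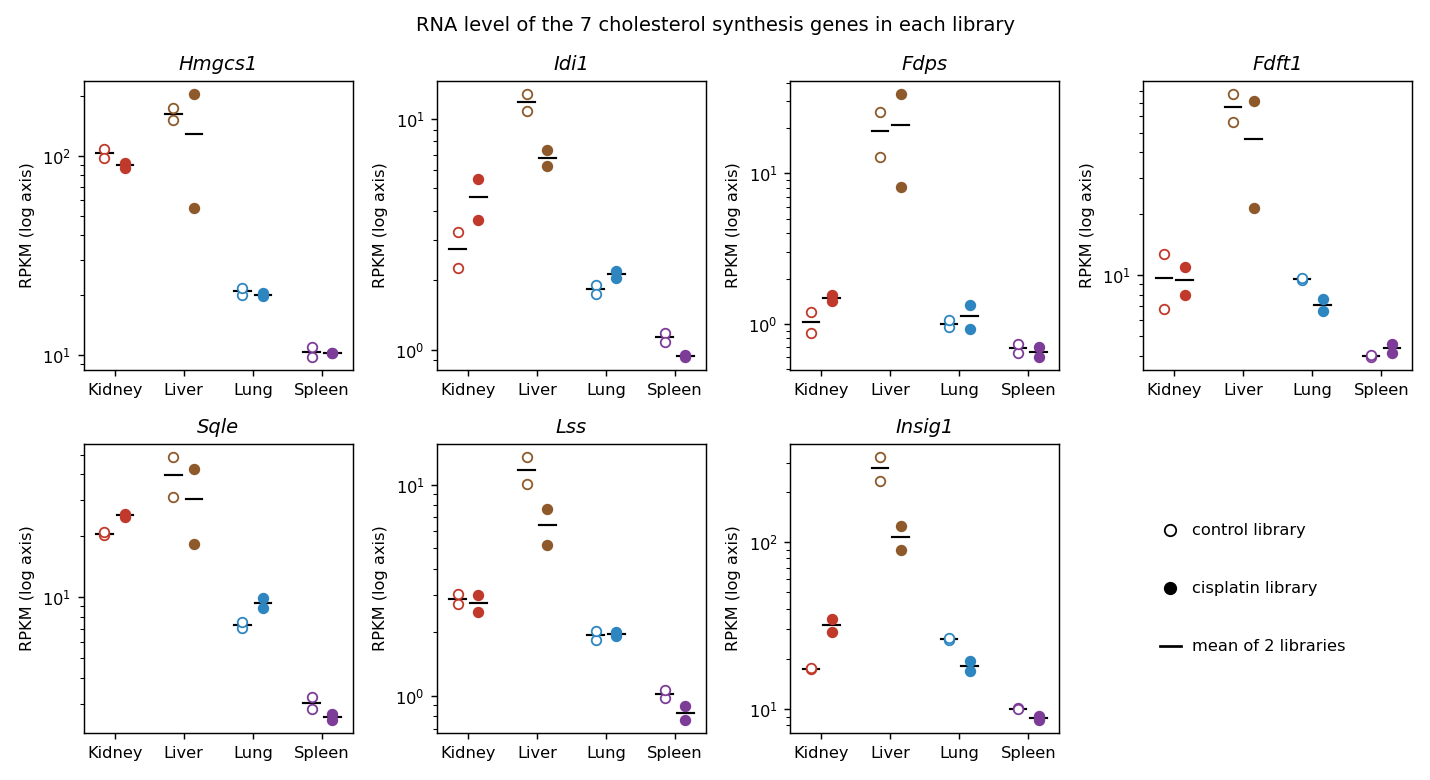
RNA level in RPKM (log axis) of each gene in the 4 organs, with open circles for control libraries, filled circles for cisplatin libraries and bars for the mean of 2. Among control libraries liver is highest for all 7 genes, and Insig1 lies higher after cisplatin in kidney (29.0 and 34.7 against 17.4 and 17.6 RPKM) and lower in liver (89.5 and 125 against 232 and 325 RPKM).

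In kidney, no member passed the test of the cisplatin response against a log2 fold change of 0.4, and Insig1 came closest. Insig1 rested at 17.4 and 17.6 RPKM in the control libraries and stood at 29.0 and 34.7 RPKM in the cisplatin libraries. Both cisplatin libraries lay above both controls by more than the spread of either pair. The log2 fold change was 0.87 (SE 0.17), with an adjusted p of 0.0855 in edgeR's glmTreat over 15470 genes, where 5.05% of genes were called. In a test against no change, without the 0.4 threshold, the adjusted p of Insig1 was 0.0294, and with the replicate number as a block it was 0.00117 by edgeR's glmTreat. Idi1 was at 3.23 and 2.25 RPKM in control kidney and at 5.52 and 3.66 after cisplatin, a log2 fold change of 0.74 (SE 0.32, adjusted p = 0.395 by edgeR). Fdps was at 0.867 and 1.196 RPKM in control and at 1.41 and 1.55 after cisplatin, a log2 fold change of 0.52 (SE 0.29). Sqle was at 20.1 and 20.8 RPKM in control and at 24.7 and 25.6 after cisplatin, a log2 fold change of 0.30 (SE 0.15). The cisplatin libraries of these 4 genes all lay above the control libraries. Hmgcs1 went the other way, with 108 and 97.9 RPKM in control and 87.1 and 91.8 after cisplatin, a log2 fold change of -0.20 (SE 0.16). Fdft1 was at 6.76 and 12.6 RPKM in control and at 7.98 and 10.9 after cisplatin, and Lss at 2.71 and 3.05 RPKM in control and at 2.99 and 2.50 after cisplatin. Both overlapped between arms, with log2 fold changes of -0.03 and -0.07. The median of the 7 was 0.30, beside -0.00 for all genes. Both cisplatin libraries lay above both controls for 4 of 7 members and 27.7% of all genes, and below them for 1 of 7 (Hmgcs1) and 28.5% of all genes.

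In liver the values of Insig1 ran opposite to those in kidney. Insig1 was at 232 and 325 RPKM in the control libraries and at 89.5 and 125 RPKM in the cisplatin libraries. The higher cisplatin library was below the lower control. The log2 fold change was -1.34 (SE 0.39), which did not pass the test (adjusted p = 0.380 by edgeR's glmTreat over 13867 genes). It was called with all RNA samples in 1 fit (adjusted p = 0.0398) and with the replicate number as a block (adjusted p = 0.0183). Lss was at 10.0 and 13.5 RPKM in control liver and at 5.15 and 7.67 after cisplatin, a log2 fold change of -0.84 (SE 0.35). Idi1 was at 10.9 and 12.8 RPKM in control and at 7.36 and 6.24 after cisplatin, a log2 fold change of -0.76 (SE 0.33). These 3 of 7 genes were lower in both cisplatin libraries, beside 23.7% of all genes, and 0 of 7 were higher in both, beside 18.4%. The other 4 genes split by library instead of by arm. Hmgcs1 was at 54.4 RPKM in cisplatin library 1 and at 204 in library 2, either side of the controls at 151 and 174. Fdft1 was at 21.2 and 71.2 RPKM in the cisplatin libraries against 56.4 and 77.2 in control, and Fdps at 8.10 and 33.5 against 12.8 and 25.3. Sqle was at 18.1 and 42.3 RPKM against 30.96 and 48.7. In each of these 4 genes library 1 of the cisplatin arm was the lowest of the 4 liver libraries. Their log2 fold changes were -0.31 (Hmgcs1), -0.51 (Fdft1), -0.37 (Sqle) and 0.14 (Fdps), with SE from 0.47 to 0.64. Hmgcs1, Sqle and Fdft1 turned to 0.33, 0.08 and 0.09 without cisplatin library 1, and Fdps turned to -1.23 without cisplatin library 2. No gene at all was called in liver (0%), with 1261 at an unadjusted p under 0.05 and 187 called by DESeq2. Summed hepatocyte markers were 112533 and 245703 CPM in the control libraries and 168258 and 260712 CPM in the cisplatin libraries. Adipocyte markers were at 2.36 and 2.66 CPM in control liver and at 18.4 and 123 CPM in libraries 1 and 2 after cisplatin, and lung epithelium markers at 12.5 and 7.16 CPM against 24.7 and 50.6 CPM. Kidney tubule markers were at 58.0 CPM in cisplatin library 2 and at 4.39 to 19.3 CPM in the other liver libraries. The part of these tissues in the liver values was not tested.

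In lung and spleen the log2 fold changes of the 7 genes lay between -0.58 and 0.31. Insig1 was at 25.9 and 26.8 RPKM in control lung and at 19.4 and 16.9 after cisplatin, a log2 fold change of -0.58 (SE 0.17, adjusted p = 0.451 by edgeR's glmTreat). Fdft1 was at 9.45 and 9.65 RPKM in control lung and at 7.59 and 6.64 after cisplatin, a log2 fold change of -0.46 (SE 0.18). Both genes were lower in both cisplatin libraries. Sqle was at 7.04 and 7.51 RPKM in control lung and at 8.81 and 9.93 after cisplatin, a log2 fold change of 0.31 (SE 0.17). Idi1, Fdps, Lss and Hmgcs1 had log2 fold changes of 0.22, 0.10, -0.04 and -0.11. The arms did not overlap for 2 of 7 members with cisplatin higher and 2 of 7 with cisplatin lower in lung, beside 35.9% and 31.1% of all genes, and for 1 and 4 of 7 in spleen, beside 30.9% and 29.2%. In spleen all 7 lay between -0.32 (Lss) and 0.13 (Fdft1), with Insig1 at 10.1 and 9.99 RPKM in control and at 9.11 and 8.61 after cisplatin. The test called 0 of 7 in both organs, beside 2.16% of all genes in lung and 0.181% in spleen. At an unadjusted p under 0.05 the edgeR test held Insig1 alone in kidney and in liver, 1 of 7 members each, and 0 of 7 in lung and spleen. Over all genes that threshold held 2936 of 15470 in kidney, 1261 of 13867 in liver, 2392 of 18257 in lung and 768 of 17685 in spleen. DESeq2 called 0 members in each organ. The cisplatin lungs also carried lower levels of markers of other tissues. Summed B cell markers were 251 and 266 CPM in control and 79.4 and 60.5 CPM in cisplatin lung, with 5 of 5 called lower. T cell markers were at 93.7 and 94.7 CPM in control and at 27.7 and 25.7 CPM in cisplatin lung, with 4 of 5 called lower, high endothelial venule markers at 130 and 138 CPM against 11.4 and 7.96 CPM, with 1 of 4 tested called lower, and adipocyte markers at 498 and 508 CPM against 122 and 51.8 CPM, with 2 of 5 called lower. In spleen, pancreatic acinar markers were at 0.158 and 0.161 CPM in control and at 1089 and 755 CPM after cisplatin. The part of these tissues in the lung and spleen values of the members was not tested.

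The response of Insig1 was then compared between organs. Each organ's response was compared with the mean response of the other 3 organs in 1 fit of all RNA samples. The kidney response of Insig1 exceeded that mean by 1.60 on the log2 scale (SE 0.32, adjusted p = 0.0694 by edgeR), and the liver response fell short of it, at -1.40 (SE 0.32, adjusted p = 0.267). No member was called in any of these 28 comparisons, beside 0.44% of all genes for kidney, 0% for liver and lung and 0.0419% for spleen. Of the 7 members, 2 in kidney and 3 in liver had an unadjusted p under 0.05, beside 1612 and 1339 of 19099 genes. Kidney minus liver, a contrast added after the data were seen, gave 2.25 for Insig1 (SE 0.38, adjusted p = 0.0750 by edgeR) and 1.55 for Idi1 (SE 0.39, adjusted p = 0.251), with 0.0576% of all genes called. The value of this contrast was positive for 7 of 7 members, with a median of 0.70 against 0.01 for all genes. The signs depend on cisplatin library 1 of liver. Without it the liver fit alone gave log2 fold changes of 0.33 for Hmgcs1, 0.08 for Sqle and 0.09 for Fdft1. The sign count of this contrast without that library is not given here. Without cisplatin library 2 of liver, 1 of the 7 members was called in this contrast in place of 0.

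**Figure D2:**
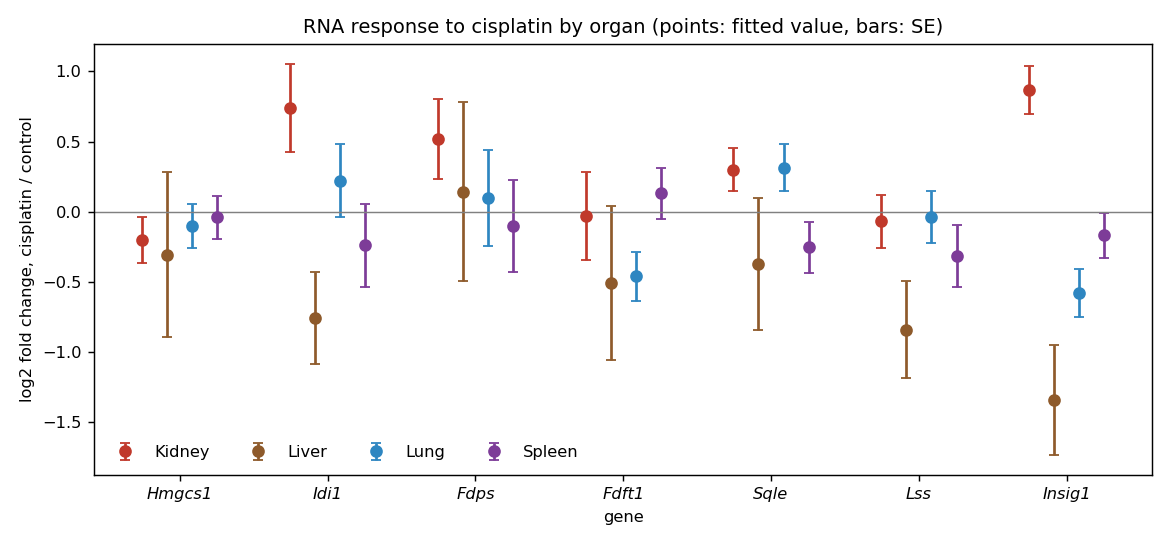
Fitted log2 fold change of cisplatin over control for each gene in each organ, with bars for the SE. Insig1 stands at 0.87 in kidney and -1.34 in liver, and the liver bars of Hmgcs1, Fdft1, Sqle and Fdps are the widest.

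The rest of the sterol pathway gave few calls. Of the 13 other enzymes between acetyl-CoA and cholesterol, 12 were tested in each organ and 0 were called in either direction, with median log2 fold changes of -0.22 (kidney), -0.19 (liver), -0.12 (lung) and 0.16 (spleen). The values closest to a call in kidney were those of Hsd17b7, a ketoreductase of sterol demethylation, at 0.61, and Msmo1, the methylsterol oxidase, at 0.56 (edgeR glmTreat adjusted p = 0.256 and 0.351). Of 6 regulators of SREBP, 0 were called in any organ. Insig2, the paralogue of Insig1, was at 1.07 in liver (SE 0.37, adjusted p = 0.507 by edgeR), with the opposite sign to Insig1 there. Srebf2, which encodes SREBP-2, was at -0.74 in liver (adjusted p = 0.687 by edgeR). In kidney the lowest adjusted p of these regulators belonged to Mbtps1, the site-1 protease that cuts SREBP, at -0.77, and Scap, its escort protein, at -0.55 (adjusted p = 0.116 and 0.399 by edgeR). Of 6 genes of cholesterol transport and handling in cells, 0 were called in any organ. Cyp7a1, the rate-limiting enzyme of bile acid synthesis, was at -2.77 in liver (SE 0.92, adjusted p = 0.406 by edgeR), the lowest adjusted p of the list, and 0 of 5 genes of bile acid synthesis were called there. Among the 7 genes of LXR signalling and cholesterol efflux, Abcg1, a cholesterol exporter, was called lower in lung at -1.37 (SE 0.19, adjusted p = 0.0379 by edgeR) and no other was called in any organ, beside 2.16% of all genes in lung. With all RNA samples in 1 fit 0 of these 7 genes were called in lung. Pdss2, a subunit that makes the side chain of coenzyme Q, was the 1 called gene of the isoprenoid branch, lower in lung at -1.91, and 0 genes of that branch were called in lung without control library 2.

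Fatty acid synthesis, which shares SREBP with the sterol pathway, was called lower in lung for 6 of 8 genes. Elovl6, a fatty acid elongase, stood at -4.19 and Fasn, fatty acid synthase, at -2.20 (edgeR glmTreat adjusted p = 0.0266 and 0.0223), and Acaca, acetyl-CoA carboxylase, was called at -2.72. The list's median in lung was -1.71, beside -0.04 for the 7 cholesterol genes and 0.01 for all genes. The adipocyte markers of the same libraries are given above, and their part in these values was not tested. In the fit of all RNA samples together 0 of these 8 genes were called in lung. In liver the same 8 genes had a median of -1.15 with 7 of 8 below 0 and 0 called, and in kidney a median of -0.50 with 8 of 8 below 0 and 0 called.

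Across 14 RNA samples, the mean profile of the 7 genes was described by its likeness to other genes. Among the members, Lss followed the profile most closely (Pearson r = 0.989), and Hmgcs1 least (r = 0.900). Each member is part of that mean, which raises its r, so member values cannot be set beside those of other genes. The 3 other genes most like the profile among 19099 were P4hb (r = 0.989), Cers2 (0.984) and Mocos (0.983). The samples come from 4 organs and 2 arms, and the centred log2 CPM profile was 0.97 to 2.50 in liver and -1.90 to -1.68 in spleen.

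Repair was read far more often from the TS than from the NTS of these genes, with the exception of Sqle and, in liver, of Fdft1 and Lss, with strand differences of 1.07 and 1.16. XR-seq levels are given as reads per 1000000 reads on genes and per 1000 GG dinucleotides of the strand, since cisplatin joins adjacent guanines. These levels carry no TMM scaling between libraries, which the fitted differences between organs do. The strand difference is the log2 ratio of TS to NTS on that scale, with each library as a block. This ratio was called in 22 of 28 comparisons of a gene in an organ, always with more reads on the TS, beside 58.3% (kidney), 52% (liver), 61% (lung) and 59.4% (spleen) of all genes called with more on the TS, and 64.5%, 59.2%, 68.3% and 66.6% called in either direction. The strand difference of Fdps ran from 3.90 in liver (SE 0.62) through 4.59 in kidney and 5.08 in lung to 5.90 in spleen (SE 0.70), with 335 to 1501 reads on the TS and 6 to 87 on the NTS of a library. Hmgcs1 ran from 3.05 in liver (SE 0.55) to 6.03 in spleen (SE 0.66), and Insig1 from 2.79 in liver (SE 0.69) to 4.87 in spleen (SE 0.79). All 3 were called in every organ. Idi1, the shortest gene of the set, was called in lung (3.37) and spleen (4.40) and not in kidney (2.64, SE 1.05) or liver (1.87, SE 1.02), where its NTS held 32 to 112 reads. The liver had the lowest strand difference of the 4 organs in 6 of 7 genes, and the all-gene median was also lowest there, at 2.11 against 2.71 in kidney, 3.14 in lung and 3.07 in spleen. The median of the 7 genes was 1.87 in liver and 2.64 in kidney, below the all-gene medians. In lung and spleen the median of the 7 was 4.115 and 4.87, above them.

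**Figure D3:**
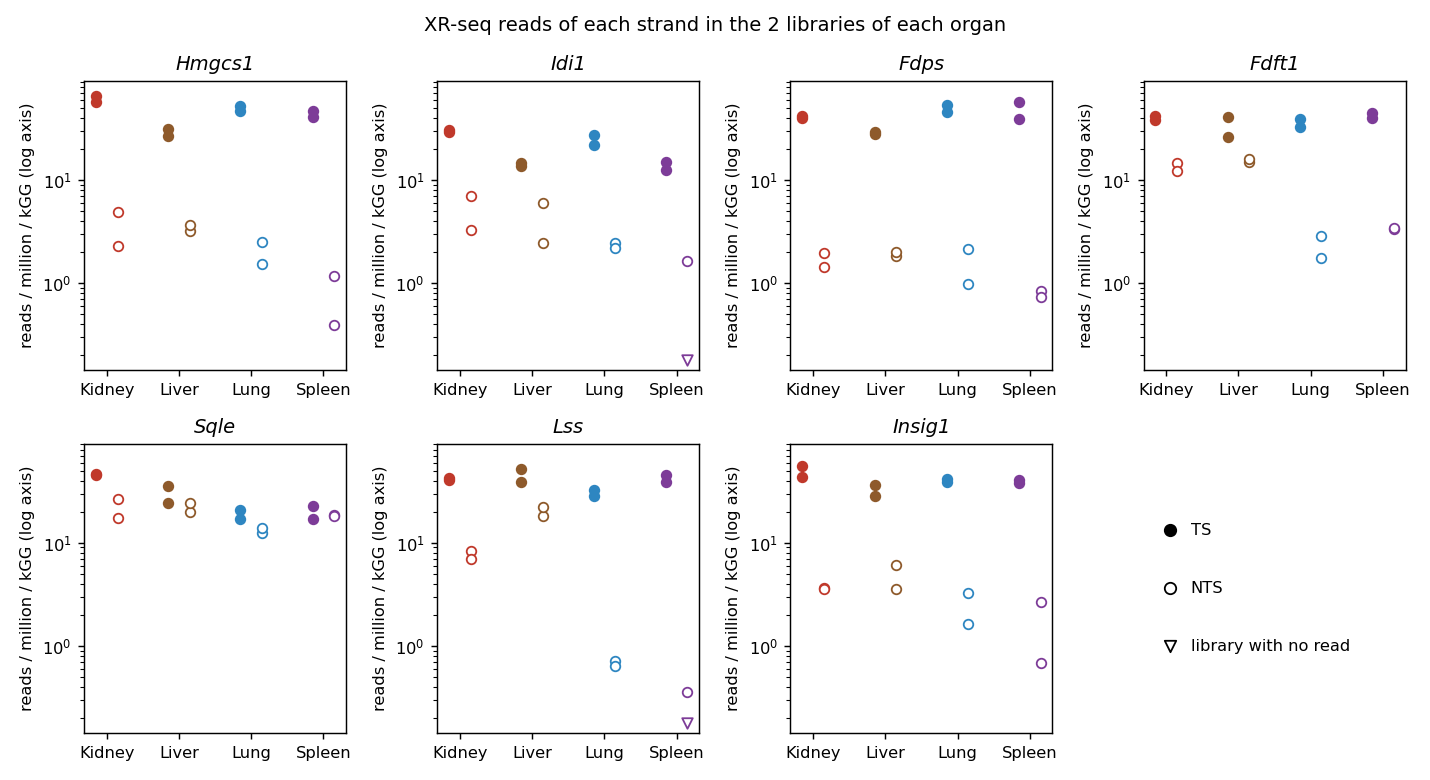
XR-seq reads per 1000000 reads on genes and per 1000 GG dinucleotides (log axis) on the TS (filled) and NTS (open) of each gene, for both libraries of each organ, with triangles for libraries without a read. TS and NTS nearly meet in Sqle, and the NTS of Lss falls from 18.2 and 22.0 in liver to 0.721 and 0.644 in lung.

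Sqle carried nearly as many repair reads on its NTS as on its TS. In spleen its 2 libraries held 202 and 493 reads on the TS and 199 and 646 on the NTS, a strand difference of 0.09 (SE 0.28). In lung the counts were 847 and 750 on the TS and 747 and 604 on the NTS, and in liver 1573 and 858 on the TS and 1066 and 1044 on the NTS. The differences of 0.52 in lung and 0.42 in liver (SE 0.28 in both) were not called. Kidney was the exception, with 707 and 1084 reads on the TS against 498 and 488 on the NTS and a called difference of 1.11 (SE 0.28, adjusted p = 0.00771 by edgeR). The NTS level of Sqle, 12.3 to 26.7 over the 8 libraries, was above the NTS range of Hmgcs1 (0.390 to 4.88), Idi1 (0 to 6.97), Fdps (0.726 to 2.15) and Insig1 (0.686 to 6.11) in all 4 organs. No counted gene overlapped Sqle, and the nearest of them on the opposite strand, Washc5, lay 805 bp away. Annotated genes without counts in these data were not searched, so an overlap of Sqle with one of them remains possible.

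Lss and Fdft1 differed between organs in their strand difference and in their NTS reads. The NTS of Lss was read 1787 and 1722 times in the liver libraries and 283 and 362 times in kidney, but 80 and 51 times in lung and 0 and 23 times in spleen, where a count of 0 allows up to 3 reads. On the TS the same libraries held 4502 and 2696 reads in liver, 1240 and 1975 in kidney, 2826 and 2300 in lung and 799 and 2210 in spleen. The TS of Lss was thus read everywhere and its NTS mainly in liver and kidney. The NTS level of Lss in liver was 3.94 above the mean of the other organs on the log2 scale (SE 0.33) and in spleen 4.01 below it, at -4.01 (SE 0.52), both called by edgeR, beside 15.4% and 9.75% of all genes. The strand difference was 1.16 for liver (SE 0.45, not called), 2.46 for kidney, 5.48 for lung and 7.52 for spleen (SE 0.64). Liver minus the other organs was -3.99 (SE 0.56, adjusted p = 0.00279 by edgeR) and spleen minus the others 4.48 (SE 0.65, adjusted p = 0.00802), beside 16.4% and 4.94% of all genes. The TS of the antisense gene 4930483K19Rik, which shares 11268 bp with the NTS side of Lss, followed the same order with 1642 and 1532 reads in liver, 258 and 292 in kidney, 15 and 13 in lung and 0 and 9 in spleen. Because that gene reaches past the end of Lss, its reads are not all Lss reads. Its poly(A)-selected RNA was at 0.271 CPM or less in each of the 16 RNA libraries.

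Fdft1 also had more NTS reads in liver and kidney. Its NTS held 1791 and 1526 reads in liver and 610 and 765 in kidney, against 236 and 274 in lung and 80 and 271 in spleen. Its strand difference was 1.07 (liver), 1.59 (kidney), 3.64 (spleen) and 4.01 (lung), with SE from 0.24 to 0.26. Liver and kidney stood apart from lung and spleen by more than those errors. Each organ differed from the mean of the other 3, by -2.01 for liver, -1.32 for kidney, 1.41 for spleen and 1.91 for lung (edgeR adjusted p = 0.00262, 0.0327, 0.0266 and 0.00784), beside 5.35% of all genes in kidney and 10% in lung. The NTS level gave the same order, with liver 1.47 and kidney 0.90 above and spleen and lung at -0.98 and -1.40 against the mean of the others, all 4 called, beside 10.8% of all genes in kidney and 8.16% in lung. The overlap of Fdft1 with Ctsb covered 774 of 34429 bp.

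The TS level of repair was then set beside the RNA of control mice, although XR-seq was made from the cisplatin arm. In the cisplatin arm Fdps RNA was at 8.10 and 33.5 RPKM in liver and at 0.921 and 1.33 in lung. Insig1 RNA of that arm was at 89.5 and 125 RPKM in liver and at 16.9 and 19.4 in lung. Control liver RNA of Fdps was 18.2 times that of lung in the fit, and its fitted TS level was -0.28 in liver (SE 0.19) and 0.25 in lung (SE 0.18) against the mean of the other organs on the log2 scale. The unscaled TS levels of Fdps were 29.6 and 28.0 in the liver libraries and 46.2 and 53.2 in lung. Insig1 RNA of control liver was 10.3 times that of lung. Its fitted TS level was -0.01 in liver and -0.10 in lung (SE 0.20 in both), while its unscaled levels, 28.5 and 36.5 in liver and 39.0 and 41.9 in lung, had the opposite order. For neither gene was the TS level called in any organ against the mean of the others. Of the 28 TS comparisons 8 were called, beside 29.1% (kidney), 49.3% (liver), 28% (lung) and 24.1% (spleen) of all genes. Sqle gave 4 of the 8, higher in kidney (0.83) and liver (0.61) and lower in lung (-0.79) and spleen (-0.65), with SE near 0.2. Its unscaled TS levels were 45.8 and 46.3 for kidney, 35.6 and 24.3 for liver, 16.9 and 21.001 for lung and 22.6 and 16.98 for spleen. Kidney lay above liver on that scale, and by less in the fit. Lss was higher in liver (0.65) and lower in lung (-0.61). Hmgcs1 was higher in kidney (0.42) and lower in liver (-0.44), with 65.3 and 57.6 on the TS in kidney against 30.97 and 26.5 in liver. In control mice liver had the most Hmgcs1 RNA, though its difference from kidney was not called. In the cisplatin arm, from which XR-seq was made, Hmgcs1 RNA was at 54.4 and 204 RPKM in liver. The kidney values of that arm, 87.1 and 91.8 RPKM, lay between them. Leaving out lung library 1 reduced the 8 calls to 4, with Lss and Sqle losing theirs in lung and Hmgcs1 both of its own, and leaving out lung library 2 reduced them to 5.

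Damage-seq counted adducts still present at the time of killing, and it gave fewer reads. The 7 genes held 0 to 144 reads on the TS and 4 to 213 on the NTS of a library. The strand difference was called in 6 of 28 comparisons, beside 22.8% (kidney), 36.3% (liver), 29.2% (lung) and 13.5% (spleen) of all genes. In liver fewer adducts were read on the TS of 4 genes. Hmgcs1 had 8 and 5 reads on the TS and 39 and 20 on the NTS, a strand difference of -1.93 (SE 0.46, adjusted p = 0.000238 by edgeR). Fdps stood at -1.51 (SE 0.49), Fdft1 at -1.28 (SE 0.29) and Lss at -1.002 (SE 0.31). All 7 values were below 0 in liver, with a median of -1.51 against -0.53 for all genes. Hmgcs1 was also called in kidney, at -0.89 (SE 0.30), with 28 and 43 reads on the TS and 73 and 80 on the NTS. Leaving out liver library 1 reduced the 6 calls to 3.

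Sqle was the 1 member called toward the TS. In lung it held 59 and 47 damage reads on the TS and 28 and 36 on the NTS, a strand difference of 0.999 toward the TS (SE 0.31, adjusted p = 0.00793 by edgeR). Idi1 had a lung value of 1.02 (SE 0.64, not called), on 16 and 14 TS reads and 6 and 11 NTS reads. In liver Sqle held 13 and 9 on the TS against 36 and 17 on the NTS, a difference of -0.97 (SE 0.42) that was not called. The liver value lay below the mean of the other organs, at -1.49 (SE 0.47, adjusted p = 0.0301 by edgeR), beside 7.83% of all genes, and no other member was called in such a comparison for liver, kidney (1.35% of all genes), lung (0.83%) or spleen (0.594%). Without the correction for GG dinucleotides the lung value of Sqle was 0.72 and lost its call, and the members called rose from 6 to 12.

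**Figure D4:**
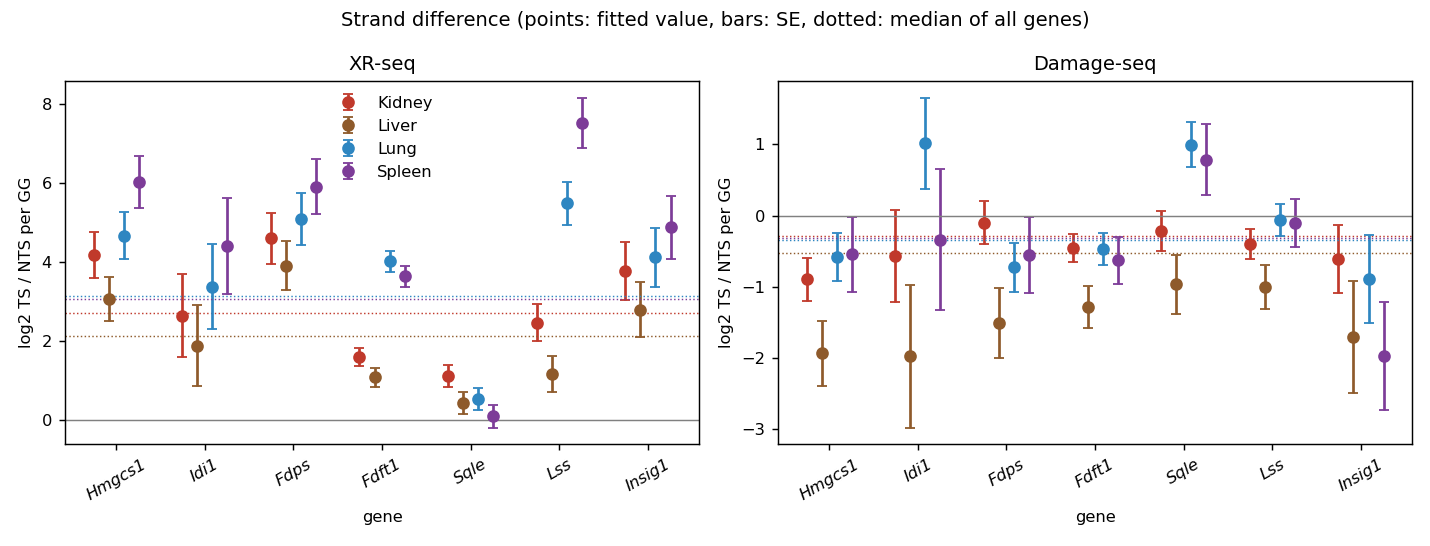
TS over NTS reads, log2 and corrected for GG dinucleotides, for each gene and organ in XR-seq (left) and Damage-seq (right), with bars for the SE and dotted lines for the median of all genes in each organ. Sqle lies at 0.09 to 1.11 in XR-seq, Lss spreads from 1.16 in liver to 7.52 in spleen, and all liver values lie below 0 in Damage-seq.

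Relative to the damage reads of the same library, levels were highest in kidney for several members. Scaling to library size removes an organ's total number of adducts, so these values do not compare that total between organs. On the NTS, kidney exceeded the mean of the other organs for Sqle (0.86, SE 0.25), Fdft1 (0.75, SE 0.17) and Lss (0.50, SE 0.18), 3 of 7 genes called beside 20.7% of all genes. Fdft1 had 187 and 213 NTS reads in the kidney libraries, 82 and 37 in those of liver, 92 and 87 for lung and 22 and 42 for spleen, and on the scale of the XR-seq levels the kidney libraries stood at 12.9 and 16.5 against 6.204 to 8.9985 elsewhere. On the TS, kidney was higher for Fdps (1.05, SE 0.34) and Fdft1 (0.97, SE 0.21), beside 20.3% of all genes, and liver was lower for Lss (-0.88, SE 0.29), beside 9.79%. No member was called in lung or spleen, where 1.81% and 1.07% of all genes were called on the TS and 0% and 0.097% on the NTS, nor on the NTS in liver (0.2%). In liver the TS value was below the mean of the others for 7 of 7 genes, with a median of -0.89 against -0.01 for all genes, and 1 of the 7 was called. The calls on both strands were lost when kidney library 2 was left out, which leaves 1 kidney library. Whether that library or the smaller number of libraries accounts for the loss was not tested. Leaving out kidney library 1 left 1 call on the NTS, and leaving out liver library 1 or spleen library 2 left 1 on the TS.

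**Figure D5:**
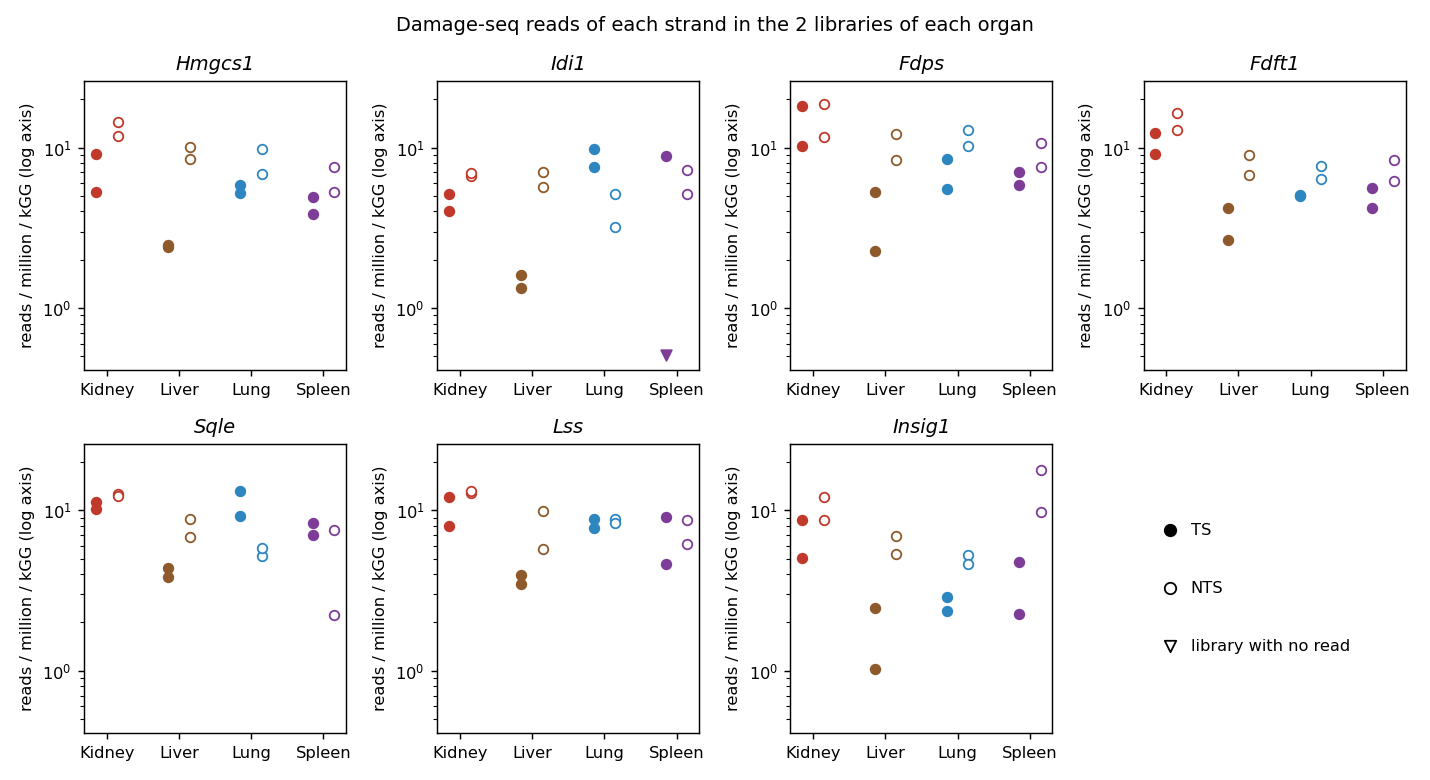
Damage-seq reads per 1000000 reads on genes and per 1000 GG dinucleotides (log axis) on the TS (filled) and NTS (open) of each gene, for both libraries of each organ, with a triangle for a library without a read. Fdft1 is highest in kidney on the NTS, at 12.9 and 16.5, and liver TS values lie low, as for Hmgcs1 at 2.41 and 2.49.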

How the data were processed

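RNA-seq, XR-seq and Damage-seq of 4 mouse organs were analysed from the count tables that the authors deposited, which hold raw read counts per gene and, for XR-seq and Damage-seq, per strand. Per the labels, the submitters' processing notes name STAR, featureCounts, BWA, cutadapt, Picard and DESeq2, with reads mapped to mm10, and the versions are not given in the sources used here. RNA was poly(A)-selected with a kit that does not mark the strand. In each strand file 1 blank line was dropped, and every value column was matched to a sample.

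The 7 genes and all gene lists were chosen with earlier results of these data known. Counts were tested with edgeR 4.0.16 (quasi-likelihood, TMM) in R 4.3.3 with limma 3.58.1, and DESeq2 1.42.0 served as an alternative. The cisplatin response was tested with glmTreat against a log2 fold change of 0.4, all other comparisons against 0, with Benjamini-Hochberg adjustment over all genes tested and a threshold of 0.05. An organ's value between organs is its difference from the mean of the other 3. Strand tests used genes under 100000 bp with at least 10 GG dinucleotides and at least 20 reads in each assay, 16502 genes in all, with GG numbers as offset and the library as block. RPKM was computed here from counts, TMM-scaled library sizes and the union of exons. RNA control pairs with a chi-square per degree of freedom under 3 were summed to 1 sample. This rule was not applied to Damage-seq, where the pairs of all 4 organs lay at 1.43 to 3.11 and were kept as 2 libraries. Those p-values therefore rest on a spread about as small as that of the summed RNA pairs. The labels do not say that the 2 libraries of a group came from separate animals, so p-values measure the spread between these libraries, and counts of 0 carry counting error only. The fits were tested on simulated data.

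Of other lists, at most 3 called genes with the largest change, or 2 with the lowest adjusted p where none was called, were named per organ. Alternatives were DESeq2, RLE size factors, no filter on low counts, a test against 0, the replicate number as block, all RNA samples in 1 fit, each control library as a sample, no GG term and leaving out libraries. The kidney minus liver contrast and leaving out single libraries in fits of several organs were chosen after seeing the data. Values were summarised with Python 3.11.15.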

Additional observations from a re-analysis of the deposited data

Results flagged for a closer look

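Differences between organs in the strand difference, each organ against the mean of the other 3, passed the edgeR test for 3 genes, with 2 libraries per organ. For Fdft1 the XR-seq strand difference was lower in kidney (-1.32) and liver (-2.01) and higher in lung (1.91) and spleen (1.41). For Lss it was lower in liver (-3.99) and higher in spleen (4.48), where 1 of the 2 libraries held no NTS read. For Sqle the Damage-seq strand difference was lower in liver (-1.49), on 9 and 13 TS reads. Groups of 2 libraries allow no test for a single outlying library.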

How the results depend on the processing

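Insig1 passed the threshold in kidney in a test against 0 (adjusted p = 0.0294 by edgeR) and in liver with all RNA samples in 1 fit (adjusted p = 0.0398), 1 member called in place of 0 in each. Its log2 fold change ran from 0.74 to 0.97 in kidney and from -1.63 to -1.09 in liver over 10 alternatives each, with adjusted p from 0.00117 to 0.368 and from 0.0183 to 1. Without a filter on low counts, 1 member was called for the response between organs and for kidney minus liver (0 in the reported fits), and 5 in place of 3 for the TS level of Damage-seq. Without the GG term, 12 in place of 6 were called for the strand difference of Damage-seq.

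The replicate numbers gave correlations of deviations of 0.565, 0.451, 0.0586 and 0.383 in kidney, liver, lung and spleen, with 2 pairs in each, and are not known to pair the samples. With the replicate block, 1 member was called in kidney and 1 in liver (Insig1), 2 for the response between organs, 1 for kidney minus liver and 38 in place of 28 for control organs. Fdft1 then turned to 0.0022 in kidney and Fdps to -0.0857 in liver.

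Leaving out 1 library at a time gave 0 to 1 calls for the response between organs, 0 to 1 for kidney minus liver, 16 to 30 for control organs, 4 to 8 for the TS and 6 to 9 for the NTS level of XR-seq, 0 to 3 for each strand of Damage-seq, 19 to 24 for the XR-seq and 3 to 9 for the Damage-seq strand difference. The log2 fold changes that changed sign ran in kidney from -0.40 to 0.47 (Fdft1) and -0.23 to 0.0649 (Lss), in liver from -1.57 to 0.33 (Hmgcs1), -1.13 to 0.0839 (Sqle), -1.65 to 0.0895 (Fdft1) and -1.23 to 0.81 (Fdps), in lung from -0.19 to 0.36 (Fdps) and -0.0732 to 0.0391 (Lss), and in spleen from -0.0627 to 0.0302 (Hmgcs1) and -0.23 to 0.0192 (Fdps). The lung NTS level of Lss ran from -1.91 to 0.69, the latter without spleen library 2. The spleen library that was left, library 1, held 0 NTS reads of Lss. The cause of these changes of sign was not tested. Of 1152 single-gene alternatives, 1060 were counted as unchanged, 72 lost a call, 4 gained one and 16 changed sign. Outside the RNA response only called values were followed, so no gain could be counted there. In the RNA response no member was called in the reported fits, so no loss could be counted there. A fold change of an uncalled gene with no test was counted as unchanged when its sign held. These counts therefore do not measure how stable the calls are.

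Over all genes, 781 were called in kidney, and 1894 without the filter, 1710 against 0 and 3181 with the block. Liver had 0, and 187 by DESeq2, 154 without the filter, 782 with the block and 517 with all RNA samples in 1 fit. Lung had 394, and 1095, 821 and 1914 in the settings named for kidney, 1608 with each control library as a sample and 70 with all RNA samples in 1 fit. Spleen had 32, and 85 by DESeq2, 58 without the filter, 170 with the block and 62 with each control library as a sample. Leaving out a replicate number in fits of several organs left no residual degrees of freedom and was not run, and without 1 cisplatin library lung and spleen gave a fold change with no test. Damage-seq was limited by 0 to 144 TS reads per gene and library.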

Other observations

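Markers of pancreatic acinar cells were nearly absent from control spleen, at a summed 0.158 and 0.161 CPM, and stood at 1089 and 755 CPM in the cisplatin spleen libraries. Of these 5 genes 4 were called higher (edgeR glmTreat), with a median log2 fold change of 12.35. The 7 cholesterol genes had a median of -0.17 in the same comparison.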
